A study of Oryctolagus cuniculus with 14 samples.

Results

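Corneas that had been exposed to sulfur mustard vapor and were scored as clinically non-impaired were compared with corneas of naive eyes. Members were chosen by the clinical status in the labels alone, which gave 5 non-impaired and 4 naive libraries, 9 of the 14 libraries in the series. All animals were New Zealand White rabbits. Non-impaired corneas were taken 4 weeks after the vapor exposure, and the naive corneas, labelled with the same 4 weeks, came from naive eyes. The remaining 5 libraries, from exposed eyes scored as impaired, were not compared. They entered the estimate of each gene's spread, the filter on low counts and the scaling between libraries. Vapor dose, rabbit age and sex, and the signs behind the score are not given in the sources used here. It is also unstated in the labels whether corneas of the same group are from different animals; p-values therefore reflect the spread among these samples alone, and part of it may be technical.

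The cornea is a transparent tissue without blood vessels, made of a stratified epithelium, a collagen-rich stroma with keratocytes and a single-layered endothelium. Sulfur mustard is an alkylating vesicant that injures this surface within hours, and some exposed eyes develop a late pathology with recurrent epithelial defects, inflammation and ingrowth of vessels. Eyes that show no clinical impairment at a given time form the group of interest here, since they had received the agent and yet were scored as free of impairment.

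The count files list 23669 Ensembl rabbit gene IDs and pair none of them with a gene name, and 0 of these IDs were found in the RefSeq table used here. Genes are therefore described by level, by fold change and by library, and only 4 are given by ID. The corneal label was not checked against marker genes for the same reason. Of the 23669 IDs, 10142 had no count in the 9 libraries, 3479 had too few counts to be tested, and 10048 were tested. Tested genes held 99.96% of the counts of the 9 libraries, whose totals lay between 12026170 (non-impaired 4) and 17488019 (naive 1).

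CPM are counts relative to library size, scaled for composition and given per 1000000 counts. The 9 libraries separated by group along the first principal component of log2 CPM, which took 56.2% of the variance. Non-impaired libraries lay between 31.1 and 39.5 on it and naive libraries between -48.2 and -41.8. The second component took 10.7% and spread the naive libraries, from -28.6 for naive 2 to 37.8 for naive 4, more widely than the non-impaired ones, which ran from -10.2 to 16.4. Naive 4 stood apart from the other naive libraries: the median absolute difference of its log2 CPM from the mean of the other 3 was 0.25, against 0.14 to 0.20 for naive 1 to 3 and 0.14 to 0.18 for the non-impaired libraries within their own group. It was the highest of the 4 naive libraries in 33.0% of tested genes and the lowest in 34.03%. Counts of changed genes are therefore also given without it.

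**Figure D1:**
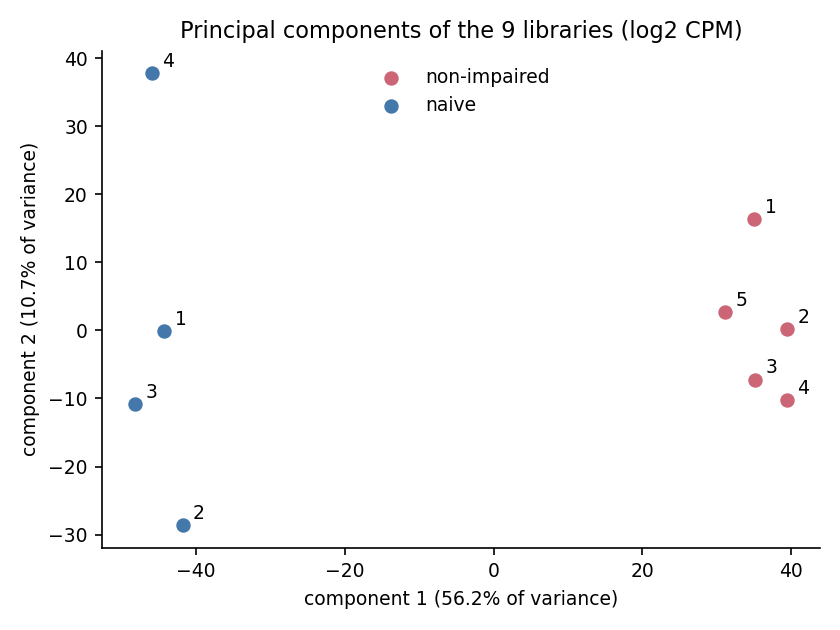
Position of the 5 non-impaired and 4 naive libraries on the first (x) and second (y) principal component of log2 CPM, computed on these 9 libraries, with replicate numbers beside the points. The groups lie on opposite sides of the first component, and naive 4 (37.8) and naive 2 (-28.6) lie at the ends of the second.

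Between non-impaired and naive corneas, 2287 of the 10048 genes changed, 22.8% of those tested, at a Benjamini-Hochberg adjusted p below 0.05 in edgeR's quasi-likelihood test. Of these, 1283 rose (12.8%) and 1004 fell (9.99%). Rises reached further than falls: 364 genes rose and 34 fell at least 4-fold. The risen count includes genes under 1 CPM, which could pass the expression filter through the group in which they are high. At least 2-fold, 614 genes rose and 210 fell, against 353 and 124 when a gene needed 5 CPM in 4 libraries to be tested. Most falls were small, with 540 of the 1004 fallen genes changed by less than 1.5-fold, against 413 of the 1283 risen genes. When the fold change itself was tested against a minimum of 1.5-fold, a test added after the data were seen, 426 genes passed as risen and 71 as fallen.

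In 2545 genes, 25.3% of those tested, the values of the 5 non-impaired and the 4 naive libraries did not overlap. Non-impaired libraries were the higher group in 1436 of them (14.3%) and the lower group in 1109 (11%). Called genes mostly belonged to this set: 1931 of the 2287, or 84.4%, did not overlap. Conversely, 614 genes did not overlap and yet did not pass the test.

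Leaving out any 1 of the 9 libraries lowered the number of calls, most of all without naive 3 and least without naive 2. With naive 3 left out there were 901 risen and 620 fallen genes, 1521 in all, and of the original calls 882 risen and 609 fallen genes remained. Without naive 4 there were 1109 risen and 787 fallen genes, of which 991 and 700 were among the original calls, and without 1 of the non-impaired libraries the total was 1846 to 2024. Altogether 802 of the 1283 risen genes (62.5%) and 521 of the 1004 fallen genes (51.9%) were called whichever of the 9 libraries was left out. Their median log2 fold changes were 1.33 and -0.63, against 0.95 and -0.55 over all risen and all fallen genes. Among genes changed at least 2-fold, 488 of 614 risen genes and 126 of 210 fallen genes were called in all 9 of these fits.

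**Figure D2:**
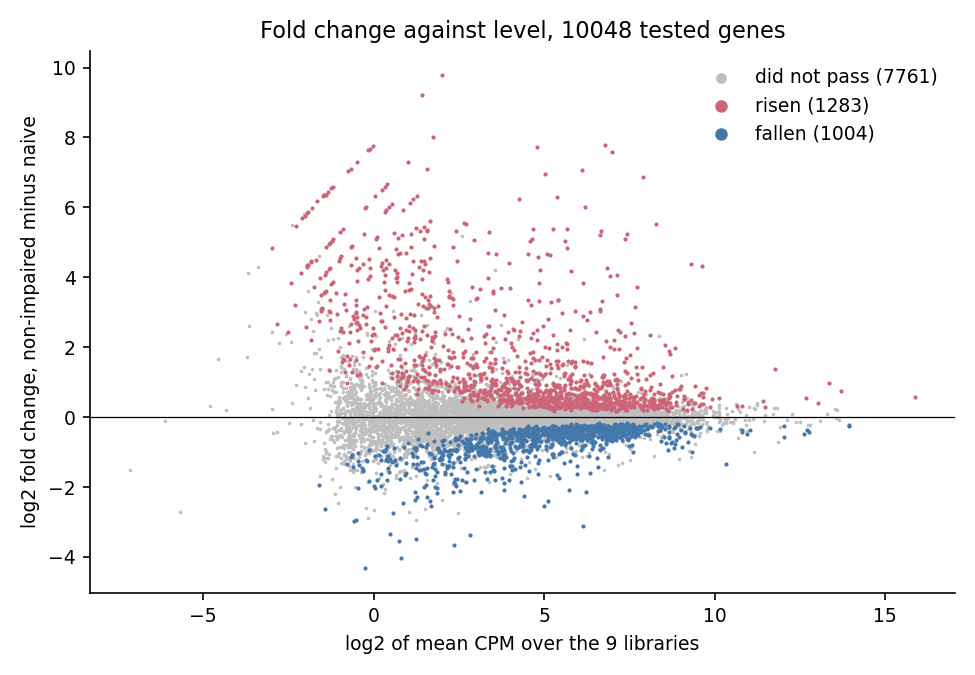
Log2 fold change from naive to non-impaired corneas (y) against the log2 of the mean CPM over the 9 libraries (x) for the 10048 tested genes, coloured by the edgeR call. Risen genes reach much larger fold changes than fallen genes, mainly at low and middle levels, and the 1004 fallen genes form a narrow band below 0.

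Rises and falls were distributed differently over expression levels. Genes were divided by their mean CPM over the 9 libraries. Among 739 genes under 1 CPM, 129 rose and 20 fell, with a median log2 fold change of 3.56 among the risen. A gene this low could pass the expression filter through the group in which it is high, so this class was bound to hold changed genes. Its number of risen genes was 60 in a fit on the 9 compared libraries alone and 2 when a gene needed 5 CPM in 4 libraries to be tested. Among 2642 genes of 1 to 10 CPM, 329 rose and 206 fell. In the largest class, 4859 genes of 10 to 100 CPM, the numbers were nearly equal at 544 risen and 543 fallen. At 100 to 1000 CPM, 270 of 1718 genes rose and 222 fell, and over 1000 CPM 11 of 90 genes rose and 13 fell. Without naive 3 the fallen genes numbered 131 at 1 to 10 CPM and 128 at 100 to 1000 CPM, the 10 to 100 CPM class held 347 risen and 338 fallen genes, and 6 genes over 1000 CPM rose. In the fit on the 9 libraries alone 18 genes over 1000 CPM rose. In that class 8 genes fell without non-impaired 3 and 7 without non-impaired 4.

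Fold changes shrank with the level. The median log2 fold change of risen genes was 1.85 at 1 to 10 CPM, 0.65 at 10 to 100 CPM and 0.52 at 100 to 1000 CPM, and that of fallen genes was -1.10, -0.50 and -0.38. At least 8-fold rises made up 64.3% of the risen genes under 1 CPM, 30.7% at 1 to 10 CPM, 7.72% at 10 to 100 CPM and 5.93% at 100 to 1000 CPM. None of the 11 risen genes over 1000 CPM rose that far. Precision differs between these classes, since only larger changes pass the test at low counts. The median log2 fold change over all genes of a class stayed within 0.05 of 0 except under 1 CPM, where it was 0.20.

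**Figure D3:**
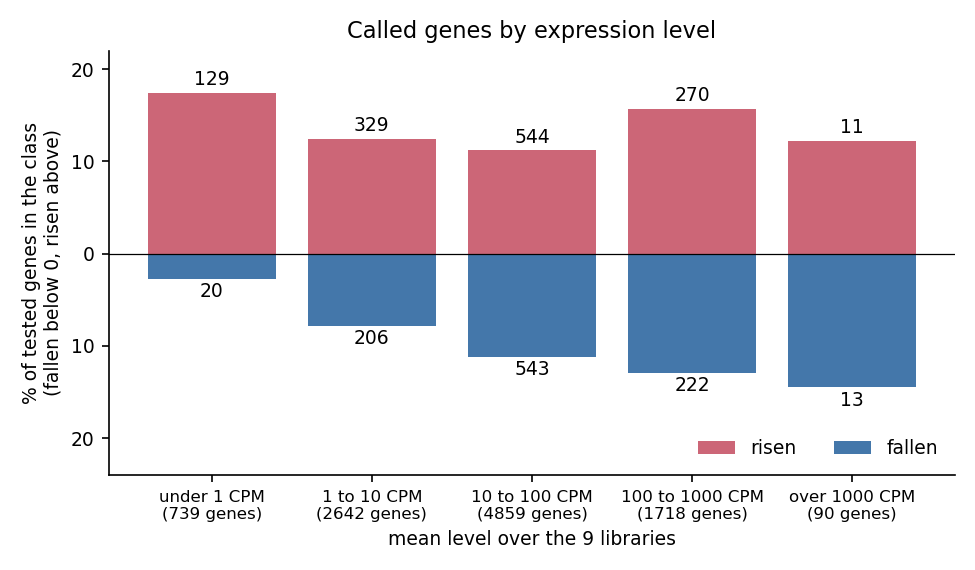
Percentage of tested genes that rose (above 0) or fell (below 0) in each class of mean CPM over the 9 libraries, with the number of called genes at each bar and the number tested under it. Below 10 CPM risen genes outnumber fallen ones (129 to 20 and 329 to 206), and at 10 to 100 CPM the numbers are nearly equal (544 and 543).

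At the lower end of detection, 55 IDs had no count in any naive library and at least 1 count in each of the 5 non-impaired libraries. Their mean in non-impaired corneas ranged from 0.0929 to 7.23 CPM with a median of 0.366 CPM. A total of 3 counts over the naive group corresponds to 0.0457 CPM. Set against that level, the median of these 55 in non-impaired corneas was 8.01 times as high and the highest 158 times. Only 20 of the 55 had enough counts to be tested. The reverse pattern, no non-impaired count and a count in each naive library, was found for 5 IDs at 0.0920 to 0.257 CPM in naive corneas. The level of 3 counts allows for counting error in the naive group only. Since the 55 IDs were chosen for having no naive count, the ratios to it are not lower limits of a change.

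By a fixed rule, the 12 genes with the largest fold change in each direction were examined among called genes that averaged 10 CPM or more in the group where they were higher, had at least 10 counts in the lower group and showed no overlap between the groups. The rule left 765 risen and 672 fallen genes to rank. The 12 leading risen genes stood at 11.0 to 550 CPM on average in non-impaired corneas and at 0.228 to 11.9 CPM in naive corneas. Their log2 fold changes ran from 5.51 to 7.79, and all 12 were called in each of the 19 alternative fits.

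The gene that rose most, ENSOCUG00000005445, had 101, 183, 319, 278 and 117 CPM in non-impaired 1 to 5 and 0.981, 0.821, 0.548 and 1.19 CPM in naive 1 to 4. Non-impaired 3 and 4 were the highest, and every non-impaired library was far above every naive one. The means were 199.5 ± 96.5 CPM (SD, n = 5) and 0.884 ± 0.269 CPM (SD, n = 4). The fitted log2 fold change was 7.79 (SE 1.07; edgeR adjusted p = 0.000265, range over the alternatives 3.74e-21 to 0.0157).

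ENSOCUG00000025803 followed with 26.8, 99.1, 54.5, 31.2 and 38.7 CPM in non-impaired 1 to 5, while the naive libraries held 0.218, 0.253, 0.205 and 0.237 CPM. Here non-impaired 2 was the highest. The naive values rest on only 15 counts over 4 libraries. The means of 50.1 ± 29.4 CPM (SD, n = 5) and 0.228 ± 0.021 CPM (SD, n = 4) corresponded to a fitted value of 7.73 on the log2 scale (SE 1.01; edgeR adjusted p = 0.000182, range over the alternatives 6.25e-22 to 0.00394).

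Other genes among the 12 had a tighter spread. The gene ranked 6 had 362, 637, 373, 358 and 392 CPM in non-impaired 1 to 5 and 2.94, 4.55, 2.53 and 4.51 CPM in naive 1 to 4. Its log2 fold change was 6.86 (SE 0.60), and apart from non-impaired 2 the non-impaired libraries lay between 358 and 392 CPM. The gene ranked 9 averaged 2.04 ± 0.78 CPM in naive (SD, n = 4) and 131 ± 25.5 CPM in non-impaired libraries (SD, n = 5), with the smallest adjusted p of the 12 (log2 fold change 6.003, SE 0.38, edgeR adjusted p = 6.58e-07). The most abundant of them, ranked 11, had 357, 843, 606, 467 and 476 CPM in non-impaired 1 to 5 and 10.6, 14.2, 9.17 and 13.6 CPM in naive 1 to 4.

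A pair of the 12 was low in a single non-impaired library. The gene ranked 10 had 10.3, 14.6, 14.05, 1.42 and 14.7 CPM in non-impaired 1 to 5, so that non-impaired 4 lay well under the others and still above the highest naive value, 0.356 CPM. The gene ranked 12 had 21.2, 11.4, 2.78, 13.1 and 9.21 CPM, with non-impaired 3 the lowest, and at most 0.479 CPM in a naive library. Non-impaired 2 was the highest non-impaired library in 9 of the 12 genes.

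**Figure D4:**
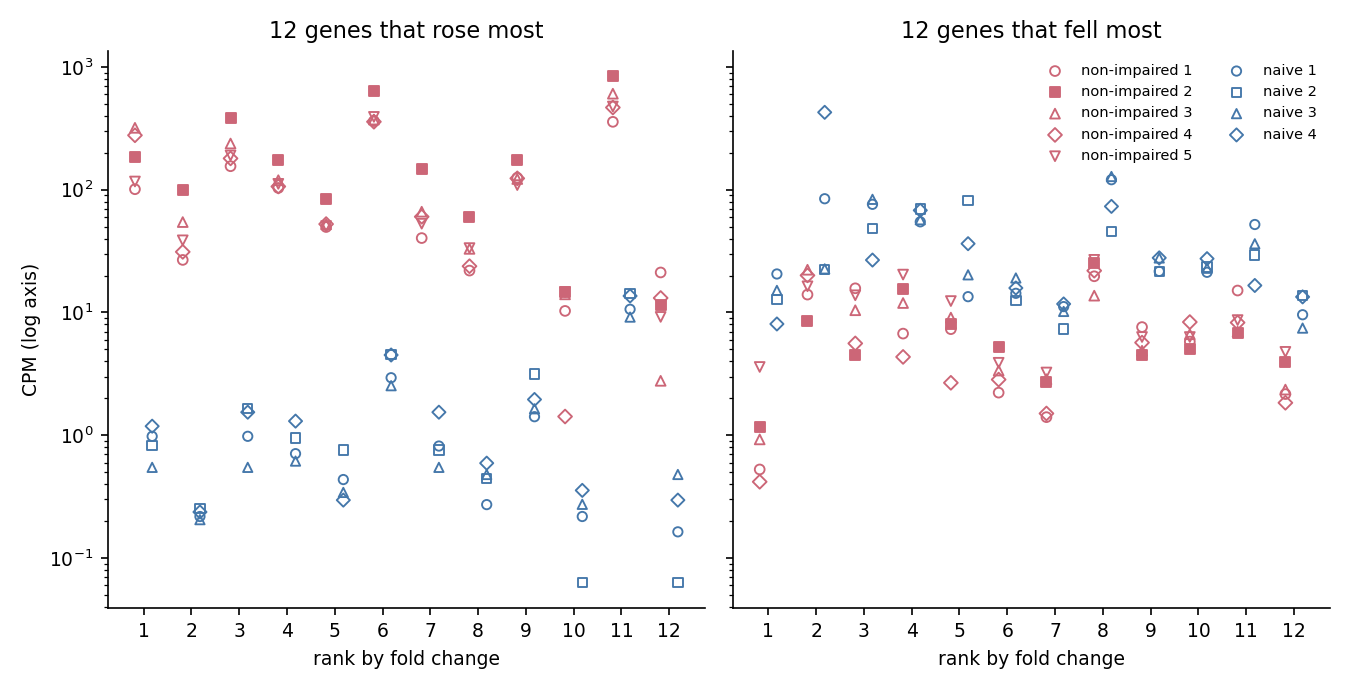
CPM on a log axis in each of the 5 non-impaired (red) and 4 naive (blue) libraries, for the 12 genes that rose most (left) and the 12 that fell most (right), ordered by fold change; the symbol gives the replicate and non-impaired 2 is filled. The gap between the groups is wide on the left, non-impaired 2 is highest in 9 of the 12 risen genes, and on the right the groups lie close together, most of all for the gene ranked 2.

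Which non-impaired library led the large rises depended on the level of the gene. Of the 242 genes that rose at least 8-fold, 65 had a mean of 10 CPM or more in non-impaired corneas and 177 had less. In the 65 more abundant genes non-impaired 2 was the highest of its group in 40 (61.5%), against 18.1% of all tested genes. Its value was a median of 1.47 times the median of the other 4 non-impaired libraries, against 1.01 over all tested genes. In the 177 less abundant genes non-impaired 1 was the highest in 86 (48.6%), against 20.4% of all tested genes, with a median ratio of 1.45 against 0.99. These shares describe genes selected for their rise, in which a library with high values takes part in the selection, and they were computed after the data were seen.

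Each set was also fitted without its leading library. Without non-impaired 2, all 65 genes were still called and 59 were still at least 8-fold. Without non-impaired 1, 14 of the 177 genes were not tested, 158 were still called and 152 were still at least 8-fold. Across fits with 1 library left out, the number of genes risen at least 8-fold ranged from 222 to 247. With other samples or filters it was 188 in a fit on the 9 compared libraries alone, 102 when a gene needed 5 CPM in 4 libraries to be tested, and 313 when low counts were not filtered.

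**Figure D5:**
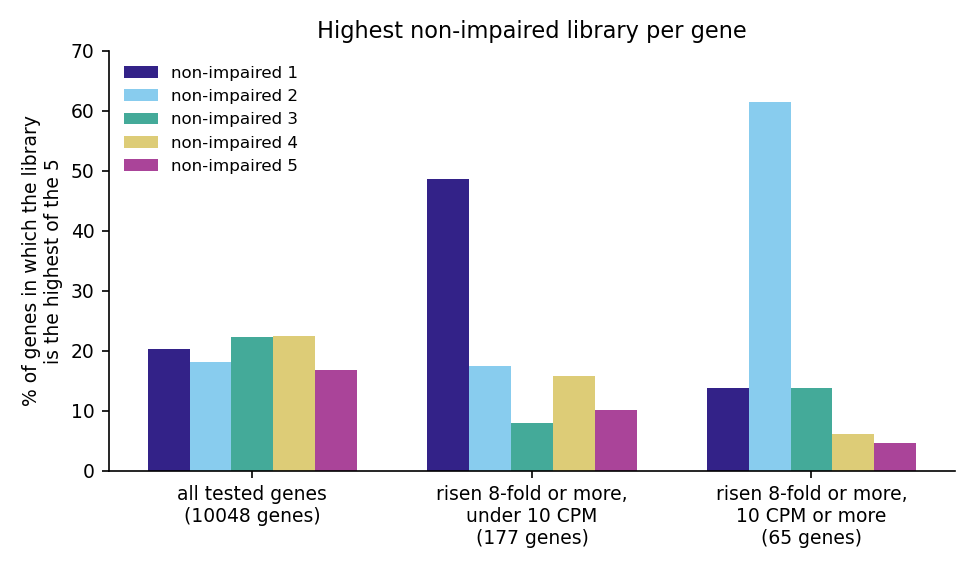
Percentage of genes in which each of the 5 non-impaired libraries is the highest of its group, for all 10048 tested genes and for genes risen at least 8-fold with a non-impaired mean under 10 CPM (177 genes) or of 10 CPM or more (65 genes). Over all genes the libraries share the lead almost evenly, whereas non-impaired 1 leads in 48.6% of the less abundant and non-impaired 2 in 61.5% of the more abundant large rises.

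The 12 leading fallen genes had 10.1 to 139 CPM on average in naive corneas and 1.33 to 21.5 CPM after exposure, and their log2 fold changes lay between -3.38 and -1.86. ENSOCUG00000005596 fell most. It had 20.6, 12.8, 15.1 and 8.06 CPM in naive 1 to 4 and 0.527, 1.17, 0.925, 0.418 and 3.60 CPM in non-impaired 1 to 5. Non-impaired 5 retained the most, and all 5 were under the lowest naive value. The log2 fold change was -3.38 (SE 0.52, edgeR adjusted p = 0.000523, range over the alternatives 4.22e-09 to 0.005998), with means of 14.2 ± 5.20 CPM in naive (SD, n = 4) and 1.33 ± 1.31 CPM in non-impaired corneas (SD, n = 5). The latter mean without non-impaired 5 was 0.761 ± 0.351 CPM (SD, n = 4).

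The next gene in that order, ENSOCUG00000014452, depended largely on a single naive library and was called in 14 of 19 alternative fits. It had 84.4, 22.5, 22.7 and 427 CPM in naive 1 to 4, and 13.99, 8.58, 22.3, 20.1 and 16.3 CPM in non-impaired 1 to 5, so that naive 2 and naive 3 were barely above the highest non-impaired value. The log2 fold change was -3.10 (SE 0.88, edgeR adjusted p = 0.0223). The gene did not pass without non-impaired 2 (edgeR adjusted p = 0.0526) or with limma voom (log2 fold change -1.69, limma adjusted p = 0.107). Nor did it pass edgeR's test against a 1.5-fold minimum (adjusted p = 0.0808). Without naive 4 the naive mean dropped from 139 ± 194 CPM (SD over all 4 naive libraries, n = 4) to 43.2 ± 35.7 CPM (SD, n = 3), the log2 fold change was -1.43 and the gene did not pass (edgeR adjusted p = 0.169, range over the alternatives 0.00159 to 0.169).

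Other fallen genes were more even across libraries. The gene ranked 9 had 21.6, 21.5, 27.8 and 27.9 CPM in naive 1 to 4 and 7.61, 4.51, 4.88, 5.68 and 6.31 CPM in non-impaired 1 to 5. At -2.09 on the log2 scale (SE 0.22; edgeR adjusted p = 4.16e-05) it had the smallest adjusted p of the 12. In the gene ranked 4, the naive libraries lay close together at 54.7, 69.8, 57.0 and 67.9 CPM, while the non-impaired libraries ranged from 4.35 CPM in non-impaired 4 to 20.4 CPM in non-impaired 5. The gene ranked 5 averaged 37.8 ± 30.5 CPM in naive (SD, n = 4) and 7.91 ± 3.51 CPM in non-impaired libraries (SD, n = 5), and it missed the threshold without naive 2, which held 81.2 CPM (log2 fold change -1.56, edgeR adjusted p = 0.0501). Of the 12 genes, 10 were called in all 19 alternative fits.

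Changes that were small as folds could be large as transcript amounts. The gene that was most abundant in all 9 libraries had 67322, 71940, 71140, 70964 and 73800 CPM in non-impaired 1 to 5 and 44477, 48775, 48380 and 49519 CPM in naive 1 to 4. Its difference of 23246 CPM made up 25.1% of the summed CPM gain of all risen genes, with a fitted change of 0.57 on the log2 scale (SE 0.07; edgeR adjusted p = 9.59e-05). The 6 genes with the largest gain in CPM together made up 47.6% of that sum. Only 2 of the 6 were called in every alternative that tested them. Those alternatives include the test against a 1.5-fold minimum, which a gene with a fitted fold under 1.5 cannot pass. The most abundant gene, at 1.49-fold, was called in 17 of 18 and missed only that test. The gene ranked 6, at 7084 ± 139 CPM in naive (SD, n = 4) and 9312 ± 617 CPM in non-impaired libraries (SD, n = 5), was called in 8 of 19. It was called in none of the 9 joint fits that left out 1 of the compared libraries. Another of the 6 nearly doubled, with 11810, 11891, 15241, 11926 and 16193 CPM in non-impaired 1 to 5 and 6944, 5766, 6426 and 7975 CPM in naive 1 to 4 (log2 fold change 0.98, SE 0.14, edgeR adjusted p = 0.000349). The largest fold among the 6 belonged to a gene at 1856 ± 295 CPM in naive (SD, n = 4) and 4828 ± 617 CPM in non-impaired libraries (SD, n = 5).

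Among fallen genes without overlap between the groups, the 6 with the largest loss made up 27.3% of the summed CPM loss of all fallen genes. Of these 6, the one with the largest fold had 1726, 2280, 1885 and 1912 CPM in naive 1 to 4 and 704, 776, 773, 756 and 821 CPM in non-impaired 1 to 5 (log2 fold change -1.35, SE 0.18, edgeR adjusted p = 0.000182). The largest loss in CPM among the 6 came from a gene at 17063 ± 1323 CPM in naive (SD, n = 4) and 14576 ± 791 CPM in non-impaired corneas (SD, n = 5). This gene only just met the rule of no overlap: naive 4, its lowest naive library, had 15509.7 CPM and non-impaired 2, the highest of its group, 15509.6 CPM. The call was lost in 9 of 18 alternative fits. These 18 include the test against a 1.5-fold minimum, which a change of this size cannot pass. The summed gain of risen genes was 92474 CPM and the summed change of fallen genes was -41689 CPM. In a bulk sample, a change in the number of cells of a type and a change in RNA per cell cannot be told apart.

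Risen genes held 24.4% ± 0.77 of all counts in non-impaired libraries (SD, n = 5) and 15.9% ± 0.14 in naive libraries (SD, n = 4). Fallen genes held 12.4% ± 0.42 and 17.2% ± 0.30. Both groups of genes were selected for these differences by a test on the same libraries, which favours genes with little spread within a group. The values are therefore descriptive and do not test how evenly the libraries took part. In risen genes the median log2 difference from the naive mean lay between 0.84 (non-impaired 5) and 0.92 (non-impaired 2), and in fallen genes between -0.57 (non-impaired 4) and -0.50 (non-impaired 3). Naive libraries, each set against the other 3, lay within 0.08 of 0 in both groups of genes.

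Spread within the non-impaired group was small for most genes. The highest non-impaired library exceeded the lowest by a median of 1.40-fold over all tested genes, 1.45-fold in risen and 1.34-fold in fallen genes. In naive corneas the median over all tested genes was 1.38-fold, but over 4 libraries instead of 5, which lowers such a ratio. The median SD of log2 CPM was 0.195 in non-impaired (n = 5) and 0.210 in naive libraries (n = 4). More than 4-fold between non-impaired libraries was found in 95 of the 614 genes that rose at least 2-fold (15.5%). It was found in 28 of the 210 that fell as much (13.3%), against 5.98% of all tested genes. Over all risen genes the share was 7.40%, and over all fallen genes 2.79%. Many genes changed at least 2-fold were low: 128 risen and 19 fallen lay under 1 CPM, and 261 and 121 at 1 to 10 CPM. Low counts widen such ratios, and the shares were not compared at equal level.

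Each library's own 100 most abundant genes held 39.9% ± 0.80 of the counts of a non-impaired library (SD, n = 5) and 38.8% ± 0.46 of those of a naive library (SD, n = 4). The groups overlapped, since naive 2 at 39.4% matched the lowest non-impaired libraries, and non-impaired 5 was the highest at 41.3%. The difference of 1.12 percentage points passed a two-sided exact permutation test narrowly (p = 0.0476, where the 126 splits allow no p under 0.0159). The most abundant gene is among these 100 genes in every library, and its mean gain of 23246 CPM exceeds the whole difference. The share without that gene was not computed, so a wider concentration of counts was not tested. The permutation result was also sensitive to single libraries. The difference did not pass when any 1 library other than naive 2 was left out (exact permutation test, p = 0.0571 to 0.107, over fewer splits).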

How the data were processed

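Raw counts per Ensembl rabbit gene ID were deposited, 1 file per library, with no pooling. Total RNA was the input of the TruSeq libraries, per the labels' protocols. The build OryCun2.0 and the tools TopHat2 2.1.0, Cufflinks 2.0.2, bcl2fastq 2.17 and DESeq are listed in the submitters' processing notes. How reads were counted (program, strand, multiple matches, annotation) was not given in the sources used here, so counts of overlapping, antisense or near-identical genes are uncertain.

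Low counts were removed by edgeR's filterByExpr (edgeR 4.0.16, R 4.3.3), and the remaining counts were scaled by TMM factors, which correct for composition. All 14 libraries entered 1 robust quasi-likelihood fit with 11 residual degrees of freedom. The 5 impaired libraries were not part of the comparison, but they entered the filter, the TMM scaling and the dispersion. CPM refer to TMM-scaled library sizes; a prior count of 2 was added for log2 CPM. A gene was called at a Benjamini-Hochberg adjusted p below 0.05 over all tested genes. The SE of a log2 fold change is its size divided by the square root of F. Genes are named by fold rank under the rule given in the results, IDs are printed for the first 2 per direction, and the choice of the 6 genes per direction by CPM difference followed the part of that rule meant for genes with symbols and was applied without symbols after the values were seen. The 36 gene lists and the cell type markers written for genes with symbols could not be applied. The comparison, its rules and lists were chosen with earlier results of these data known.

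Alternatives were DESeq2 size factors, DESeq2 1.42.0, limma 3.58.1 with voom, 2 other filters, a fit on the 9 libraries alone, and leaving out each of the 9 libraries. The voom fit also estimated a quality weight for each library, so that libraries further from their group counted for less. Added after the data were seen were a test against a 1.5-fold minimum, a fit without the 10 most abundant genes, and fits on the compared libraries without naive 3 or naive 4. In simulated libraries (9932 genes tested), edgeR called 74 of 100 genes with a 2-fold change, 92 of 100 with a 4-fold change and 7 unchanged genes. The changed genes were drawn only from genes above a minimum mean count, so recovery at low counts was not tested. Far fewer genes changed than were called here, and counts were drawn at the fitted dispersions without outlying libraries.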

Additional observations from a re-analysis of the deposited data

Results flagged for a closer look

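Dixon's criterion was applied to 74 sets of values (36 genes in 2 groups each, and the share of the 100 most abundant genes). Its cutoff is met in about 1 in 20 sets of independent, normally distributed values. The genes were chosen for large changes without overlap, in which an extreme library can take part, so that rate does not apply to them. In 11 sets the highest or lowest library was set apart from the rest of its group. Of these, 5 were non-impaired 2 in genes that rose most: 173 CPM against 103 to 120 CPM in the other 4 libraries (rank 4), 83.8 against 49.7 to 52.5 CPM (rank 5), 637 against 358 to 392 CPM (rank 6), 148 against 40.4 to 66.2 CPM (rank 7) and 175 against 109 to 125 CPM (rank 9). Among the genes that fell most, non-impaired 5 had 3.60 CPM against 0.418 to 1.17 CPM in ENSOCUG00000005596, naive 4 had 427 CPM against 22.5 to 84.4 CPM in ENSOCUG00000014452, and non-impaired 1 had 15.1 CPM against 6.85 to 8.67 CPM in the gene ranked eleventh. Naive 4 also had the lowest value, 7118 CPM against 7801 to 7917 CPM, in the gene ranked 4 by loss in CPM among fallen genes without overlap. For the share of the 100 most abundant genes, non-impaired 5 stood at 41.3% against 39.4% to 39.7%, and naive 2 at 39.4% against 38.5% to 38.6%.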

How the results depend on the processing

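The main fit called 2287 changed genes (1283 risen and 1004 fallen, of which 614 and 210 changed at least 2-fold). Against these, limma voom with library weights called 3715 (1961 and 1754), with 329 fallen at least 2-fold. The test against a 1.5-fold minimum called 497 (426 and 71), with 70 fallen at least 2-fold. With at least 5 CPM in at least 4 libraries, 353 genes rose and 124 fell at least 2-fold, over fewer genes tested. Leaving out 1 library gave 1521 to 2100 changed, 901 to 1184 risen, 620 to 916 fallen, 524 to 608 risen 2-fold and 163 to 236 fallen 2-fold genes, the lowest counts without naive 3 except for the last, which was lowest without non-impaired 2. The fit on the 9 libraries alone called 2697 and DESeq2 2828. No called gene changed sign in any of the 19 alternatives. Risen genes made up 56.1% of calls, 52.0% to 60.3% over the alternatives other than the 1.5-fold test, which gave 85.7%. The share of the 100 most abundant genes differed by 0.769 to 1.36 percentage points with 1 library left out (exact permutation p = 0.0357 to 0.107), by 2.48 for 10 genes (p = 0.0159) and by 0.557 for 1000 genes (p = 0.0794). The most abundant gene, which gained 23246 CPM, is part of each of these shares. No paired analysis was possible because the labels name no animal or pair. They also give no replicate numbers, and those used here follow the order of the samples. Depth limits genes under 1 CPM, where naive values often rest on a few counts.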

Other observations

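Of the 6 non-overlapping fallen genes with the largest loss in CPM, 3 had ID numbers within 10 of each other. Another 9 tested genes had ID numbers within 10 of any of these 3. Leaving aside the 3, all 9 had a log2 fold change below 0, from -0.55 to -0.14 with a median of -0.30, where 50.4% of all tested genes were below 0. Of the 9, 1 was called fallen and none risen, beside 9.99% fallen and 12.8% risen over all tested genes. The set was chosen after the values were seen, and neighbouring ID numbers were not matched to positions in the genome.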
